A study of Homo sapiens with 7 samples.

Results

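KIT, FLT3, CD34, BCL11A, MN1, ZEB2 and MSI2 are genes of blood progenitors and stem cells, and their loci were read here for binding of the transcription factor RUNX2 and for acetylation of histone H3 at lysine 27 (H3K27ac). The 7 genes were chosen by function, with earlier results of these data known. They are among 19974 protein-coding genes on chromosomes 1 to 22 and X. A locus was taken as the RefSeq span of the gene plus 50 kb on each side. Their loci add up to 1649 kb of hg38. They held 85 of the 42911 RUNX2 peaks of KARPAS-45 and 28 of the 21027 of PER-117, and 71 of the 63265 H3K27ac regions of KARPAS-45 and 149 of the 53263 of PER-117.

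KARPAS-45 and PER-117 are established lines of T-cell acute lymphoblastic leukemia (T-ALL), and KARPAS-45 carries a rearrangement of KMT2A. Chromatin immunoprecipitation with sequencing was done with an antibody to RUNX2 and with one to H3K27ac, each at 10 ug, in each line, which gave 1 library per line and antibody. KARPAS-45 was grown in 20% and PER-117 in 10% fetal bovine serum, both were crosslinked for 10 min in 1.1% formaldehyde, and chromatin was sheared to 200 to 300 bp. No line was perturbed, so the comparison is of a line with another line, and line, serum and library cannot be told apart. With 1 library per group no difference between the lines has a replicate check or a test. Read depth is not known from the lists, and what was not called may lie below the limit that an unknown depth sets. In bulk cultures such as these, binding in fewer cells and weaker binding per cell cannot be told apart.

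KIT and FLT3 are receptor tyrosine kinases of the class III family that pass growth and survival signals from their ligands to early blood cells, and activating mutations of either occur in leukemia. CD34 is the surface glycoprotein used to sort blood stem and progenitor cells. BCL11A and ZEB2 are zinc finger repressors, MN1 is a transcriptional coregulator that drives myeloid leukemia when overexpressed, and MSI2 is an RNA-binding protein that sustains stem-cell self-renewal. RUNX proteins bind DNA through their Runt domain and act as activators or repressors according to their partners, and H3K27ac marks active promoters and enhancers.

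As a check of the cell type, 8 of 8 T-cell genes carried H3K27ac within 1 kb of either end of the gene in both lines, where 61% of all protein-coding genes did in KARPAS-45 and 55.5% in PER-117. In both lines 0 of 4 myeloid genes and 1 of 3 erythroid genes (EPOR) did. Of 3 non-blood genes, COL1A1 and EPCAM did in KARPAS-45, with 0 in PER-117. As a whole, the H3K27ac lists covered 167 Mb in KARPAS-45 and 76.2 Mb in PER-117. They contain weak calls: 27.3% and 33.7% of their regions had a −log10 q below 2.

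The promoter windows of 3 members held a RUNX2 peak summit, the base with the highest signal of a peak: those of KIT and FLT3 in KARPAS-45 and of FLT3 and ZEB2 in PER-117. The 250 bases before each of these 3 starts are shown. Those of FLT3 and ZEB2 hold the summits, while the KIT summit lies 22 bases past the start and outside the bases shown. The sequences come from the RefSeq promoter table of GRCh38.p14, which matched 6 of the 7 genes, all but MN1. Each is given 5′ to 3′ on the strand of the gene: KIT at chr4:54657707-54657956 on the plus strand, FLT3 at chr13:28100577-28100826 on the minus strand and ZEB2 at chr2:144520120-144520369 on the minus strand. Capitals mark the letters TGCGGT, a spelling of the RUNX core.
KIT: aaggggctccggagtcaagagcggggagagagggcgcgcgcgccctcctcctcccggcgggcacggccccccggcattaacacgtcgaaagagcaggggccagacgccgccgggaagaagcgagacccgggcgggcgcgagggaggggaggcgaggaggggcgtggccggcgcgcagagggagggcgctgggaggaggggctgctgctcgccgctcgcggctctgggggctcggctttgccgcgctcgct
FLT3: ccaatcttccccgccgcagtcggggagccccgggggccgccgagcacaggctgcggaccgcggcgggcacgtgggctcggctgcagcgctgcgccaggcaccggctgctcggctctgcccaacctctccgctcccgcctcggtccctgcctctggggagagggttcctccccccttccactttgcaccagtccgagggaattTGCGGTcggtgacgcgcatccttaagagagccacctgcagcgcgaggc
ZEB2: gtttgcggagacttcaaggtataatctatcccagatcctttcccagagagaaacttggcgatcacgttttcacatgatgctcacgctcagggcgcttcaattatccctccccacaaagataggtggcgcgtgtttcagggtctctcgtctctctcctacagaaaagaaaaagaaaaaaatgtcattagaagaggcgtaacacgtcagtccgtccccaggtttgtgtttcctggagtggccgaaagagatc

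The FLT3 window held the RUNX core letters and the strongest start peak of the members. TGCGGT begins 48 bases before the FLT3 start, 7 bp from the KARPAS-45 summit and 28 bp from the PER-117 summit. This spelling, which was added after the sequences were seen, is found on either strand in 7.28% of the 34789 promoter windows of the table, which run from 250 bases before to 50 after a start. The usual spelling TGTGGT is found in 13.1% of windows and in none of those of KIT, FLT3 and ZEB2. BCL11A held TGTGGT in 1 of its 5 windows, 11 bases before that start, where neither line had a summit. Of the other letters searched on both strands, the E-box CAGGTG (20.6% of windows) was found in its reverse form CACCTG 17 bases before the FLT3 start, and GATA letters AGATAA (10.4%) and ETS letters CCGGAAG (10.2%) were in no window of the 3 genes. The windows of KIT and FLT3 were rich in G and C, at 74.3% and 74.0%, with 38 and 34 CpG sites, beside medians of 58.7% and 14 over all windows. The ZEB2 window had 49.0% and 14 CpG sites. A match of letters is a description of the window and no evidence of a site.

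With the lists as deposited, CD34 and MSI2 had the highest RUNX2 densities of the 7 loci in both lines. In KARPAS-45, CD34 had 7.68 RUNX2 peaks per 100 kb and MSI2 had 9.35, and PER-117 had 5.38 and 2.75. FLT3 followed with 4.05 in KARPAS-45 and 1.52 in PER-117, KIT with 3.83 and 0.547, BCL11A with 2.95 and 0, ZEB2 with 0.847 and 0.847 and MN1 with 0.652 and 0. The order from high to low was MSI2, CD34, FLT3, KIT, BCL11A, ZEB2, MN1 in KARPAS-45 and CD34, MSI2, FLT3, ZEB2, KIT in PER-117, with BCL11A and MN1 at 0. Without replicates no spread was available to say which neighbours in that order differ. With the KARPAS-45 list cut to the 21027 peaks of highest fold enrichment, its density was 3.48 at MSI2, 2.30 at CD34, 2.19 at KIT and 1.52 at FLT3, so that CD34 and KIT were close and CD34 had fewer peaks in KARPAS-45 (3) than in PER-117 (7). FLT3 then had 3 peaks in each line, and at ZEB2 KARPAS-45 had 0 and PER-117 had 2. As deposited, the medians over the 7 genes, 3.83 and 0.847 peaks per 100 kb, stood beside medians of 2.60 and 1.09 over all protein-coding genes. All 7 loci held a RUNX2 peak in KARPAS-45 and 5 did in PER-117, where 85.4% and 73% of all genes do.

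H3K27ac put the same pair on top in both lines. In KARPAS-45 it covered 65.9% of the MSI2 and 46.8% of the CD34 locus, and in PER-117 it covered 31.5% and 30.1%. In KARPAS-45, 95.2% of genes had a lower H3K27ac share than CD34 and 99.0% a lower one than MSI2, and in PER-117 these figures were 97.7% and 98.0%. FLT3 had 13.0% in KARPAS-45 and 4.35% in PER-117, BCL11A 7.89% and 0.81%, ZEB2 1.83% and 4.19%, KIT 2.23% and 0%, and MN1 0.619% and 0%. ZEB2 was the member with more covered bases in PER-117 than in KARPAS-45. Over all genes the medians were 7.17% and 3.33%. All 7 loci held H3K27ac in KARPAS-45 and 5 in PER-117, beside 83% and 81% of all genes.

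**Figure D1:**
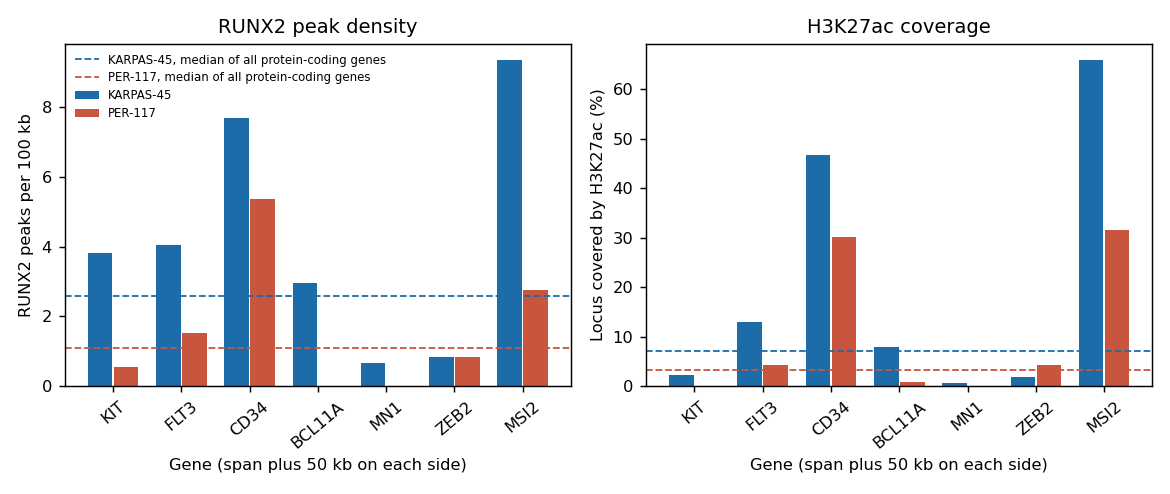
RUNX2 peaks per 100 kb of locus and the percent of the locus covered by H3K27ac for each of the 7 genes, with 1 value per line, as each comes from 1 library. With the lists as deposited, CD34 and MSI2 stand above the other 5 genes for both marks in both lines, from 2.75 to 9.35 RUNX2 peaks per 100 kb and from 30.1% to 65.9% in H3K27ac, and ZEB2 has the higher H3K27ac value in PER-117.

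At gene ends the count of bound members depended on the window. RUNX2 lay within 1 kb of either end of 3 of the 7 in KARPAS-45 (KIT, FLT3 and ZEB2) and of 2 in PER-117 (FLT3 and ZEB2), where 48.3% and 32.5% of all protein-coding genes were so bound. Within 2.5 kb these counts were 6, all but MN1, and 2, beside 53.9% and 37.1%. Within 1 kb, FLT3 and ZEB2 were bound at an end in both lines (29.2% of all genes) and KIT in KARPAS-45 only (19.2%). At annotated starts, which the table gives for 6 members and 15813 protein-coding genes, RUNX2 was called at 3 in KARPAS-45 (KIT, FLT3 and MSI2) and at 2 in PER-117 (FLT3 and ZEB2), beside 50.5% and 34.4%. FLT3 alone was bound at its start in both lines, as were 30.9% of genes.

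With the lists as deposited, acetylation of gene ends differed more between the lines. In KARPAS-45 all 7 members had H3K27ac within 1 kb of an end, while in PER-117 FLT3, ZEB2 and MSI2 did, beside 61% and 55.5% of all genes. Thus 3 were acetylated at an end in both lines (51.9% of all genes) and 4, KIT, CD34, BCL11A and MN1, in KARPAS-45 only (9.18%). At annotated starts 5 of 6 members were acetylated in KARPAS-45, all but CD34, and 3 in PER-117, beside 61.6% and 57.1% of genes. These 3, FLT3, ZEB2 and MSI2, were acetylated at the start in both lines (53.8%), and KIT and BCL11A in KARPAS-45 only (7.8%). The start regions of KIT and MSI2 and the end region of MN1 in KARPAS-45 were weak, with a −log10 q below 2. Restricting the H3K27ac lists to regions at or above that value left 4 members of KARPAS-45 with an acetylated end and 3 of PER-117. Cutting the KARPAS-45 list, widest first, to the length that the PER-117 list covers left 2 and 3. Within 2.5 kb of an end 7 and 4 members were acetylated, as CD34 was then called in PER-117 too. The difference between the lines thus depended on these cuts and on the window, and the shares of all genes under them were not computed.

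KIT, the receptor for stem cell factor (chromosome 4, 54657957 to 54740715), was bound by RUNX2 at 7 places in KARPAS-45 and at 1 in PER-117. The values are fold enrichments over background as the authors' peak caller gave them, a linear ratio that ranks peaks within 1 list only. At the KIT start, KARPAS-45 had a peak with a fold enrichment of 4.01 and its summit 22 bases past the start, and a second with 16.1 at 640 bases past it, the strongest of the locus. In the body, peaks lay 30.2, 33.7, 51.7 and 52.6 kb from the start with 5.23, 10.7, 9.71 and 6.18. The seventh, with 13.7, lay 5.72 kb beyond the 3′ end. PER-117 had its peak at 51.7 kb, with 3.75 and rank 17925 of 21027, and its summit was 51 bp from that of KARPAS-45. Body binding was thus the element of KIT called in both lines, while the start was called in KARPAS-45 alone.

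H3K27ac at KIT was weak in KARPAS-45 and not called in PER-117. KARPAS-45 had 3 regions, of 1.98 kb across the start, 1.82 kb at 50.7 kb into the gene and 0.271 kb nearby, with fold enrichments from 1.37 to 1.47. All 3 had a −log10 q below 2, so none remained when that value was required. Of the 7 RUNX2 summits of KARPAS-45, 3 lay in these regions, and the PER-117 summit lay in none. Between 50 and 100 kb beyond the 3′ end, outside the locus as set here, PER-117 had 3 RUNX2 peaks. They lay 53.6, 60.6 and 78.5 kb beyond it with fold enrichments of 8.14, 10.4 and 3.30, and each summit was in H3K27ac of PER-117, whose widest regions there were 2.32 kb with 4.48 and 2.16 kb with 5.19. KARPAS-45 shared the peak at 53.6 kb, with 8.83, and had no H3K27ac within 100 kb on that side beyond the locus. The KIT locus of PER-117 therefore held 1 RUNX2 peak with a flank of 50 kb and 4 with a flank of 100 kb.

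FLT3, the receptor for FLT3 ligand (chromosome 13, 28003274 to 28100576), had a RUNX2 peak at its start in both lines, the strongest of its locus in KARPAS-45 and the weakest of 3 in PER-117. In KARPAS-45 it had a fold enrichment of 31.2, rank 960 of 42911, with its summit 55 bases before the start in the window shown above. In PER-117 it had 5.16, rank 12175 of 21027, with its summit 76 bases before the start. The summits were 21 bp apart. Both lay in H3K27ac, which spanned 1.21 kb with a fold enrichment of 9.85 (KARPAS-45) and 0.716 kb with 2.45 (PER-117). FLT3 was thus bound and acetylated at the start in both lines, high in the KARPAS-45 list and near the middle of the PER-117 list, and its PER-117 call was lost when a −log10 q of at least 10 was required.

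In the rest of the FLT3 locus, KARPAS-45 had 7 peaks and PER-117 had 2. KARPAS-45 alone had peaks in the body, at 6.11 kb from the start with 9.29 and at 45.02 kb with 7.81, and another with 5.35 close to the downstream edge of the locus. The remaining 4 of KARPAS-45 had fold enrichments of 3.59, 4.23, 4.33 and 4.64 and lay around the lower end of the neighbouring gene PAN3, a subunit of a poly(A) nuclease, 37.6 kb from FLT3. PER-117 had 6.30 and 6.93 there. This was the part of the locus where PER-117 peaks had the higher fold enrichments and the strongest H3K27ac region of PER-117 in any of the 7 loci, 3.39 kb wide with 13.9, beside a region of 6.88 kb with 1.94 in KARPAS-45. Neither mark was called within 1 kb of the ends of CDX2 and URAD, the other genes with an end in the locus. All 8 RUNX2 summits of KARPAS-45 and all 3 of PER-117 lay in H3K27ac of their own line.

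CD34 (chromosome 1, 207880972 to 207911125) had neither mark at its start in either line. The nearest H3K27ac was 5.89 kb from the start in KARPAS-45 and 5.14 kb in PER-117, and the nearest RUNX2 summit 6.57 and 12.7 kb. The signal lay beyond the 3′ end instead, where 2 strong peaks were shared by the lines. At 7.45 kb beyond the end (chromosome 1, 207872933 to 207873797 in KARPAS-45) the fold enrichment was 31.0 in KARPAS-45, rank 974, and 23.8 in PER-117, rank 367. At 18.9 kb beyond it (207861508 to 207862408) it was 33.1, rank 800, and 18.0, rank 938. Their summits were 20 and 26 bp apart. These were the strongest CD34 peaks of KARPAS-45, and they ranked in the top 5% of both lists.

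A CD34 peak of PER-117 upstream of the gene had no counterpart in KARPAS-45. It lay 12.7 kb before the start (207923640 to 207924000) with a fold enrichment of 20.1, rank 654, inside an H3K27ac region of 5.38 kb with 5.39, while the nearest H3K27ac of KARPAS-45 was 18.6 kb away. Of the other CD34 peaks, 2 further pairs were shared, at 16.97 kb beyond the 3′ end, where KARPAS-45 had 4.58 and PER-117 had 3.87, and at 6.54 kb, where they had 4.08 and 4.25. The remaining 6 of KARPAS-45 ran from 3.49 to 7.95 and the remaining 2 of PER-117 had 5.35 and 3.83. The strong peaks of CD34 thus all lay outside the span of the gene.

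All 10 CD34 summits of KARPAS-45 and all 7 of PER-117 were in H3K27ac of their own line. In KARPAS-45 a region of 43.1 kb with a fold enrichment of 4.17 ran from beyond the 3′ end into the body and held 8 of the 10 RUNX2 peaks, and a second spanned 26.3 kb. In PER-117 the widest region was 16.3 kb with 7.46 and held 5 of the 7. The lines shared 27.9 kb of H3K27ac in the locus, which was 45.7% of the KARPAS-45 and 71.1% of the PER-117 bases. The call of H3K27ac at a CD34 gene end in KARPAS-45 came from this domain reaching the 3′ end.

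**Figure D2:**
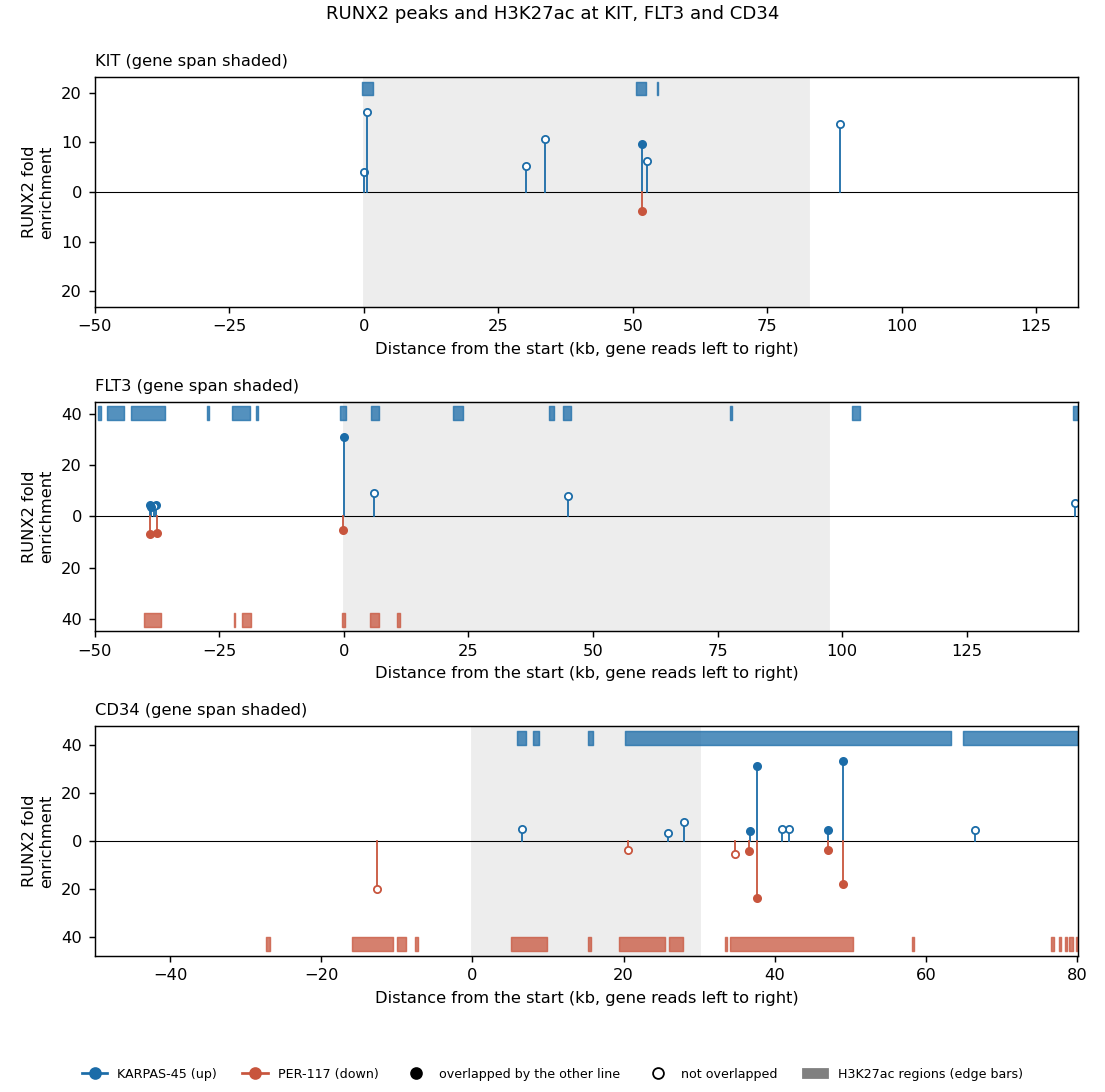
RUNX2 peaks at KIT, FLT3 and CD34 by distance from the start in kb, with the fold enrichment as height, KARPAS-45 upward and PER-117 downward; filled symbols overlap a peak of the other line, bars at the edges are H3K27ac regions and shading is the gene. The FLT3 start peak reaches 31.2 upward and 5.16 downward, the tall pairs of CD34 (31.0 with 23.8 and 33.1 with 18.0) lie beyond the gene, and KIT has 1 downward peak of 3.75.

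BCL11A, a repressor of fetal globin genes and a regulator of lymphoid development (chromosome 2, 60450520 to 60553924), had RUNX2 peaks in KARPAS-45 alone, 6 of them beside 0 for PER-117. The strongest, with a fold enrichment of 18.0 and rank 3800, lay 27.9 kb into the gene and outside H3K27ac. A second body peak at 8.82 kb had 6.41. Upstream, peaks with 3.49 and 6.31 lay 1.92 and 2.70 kb before the start and one with 4.80 at 28.1 kb before it, and the sixth, with 8.02, lay 39.0 kb beyond the 3′ end. No BCL11A peak was within 1 kb of a gene end. An H3K27ac region of 8.96 kb with 2.97 covered the start in KARPAS-45 and held the 2 nearest upstream peaks, and 4 of the 6 regions of that line had a −log10 q below 2. PER-117 had a single region, 1.65 kb wide with 2.63 and 142 kb from the start, in which the KARPAS-45 peak with 8.02 has its summit although KARPAS-45 had no H3K27ac there. The lines shared 0 kb of H3K27ac at BCL11A.

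MN1 (chromosome 22, 27748277 to 27801756) had the least of both marks among the 7 genes in KARPAS-45, and none in PER-117. KARPAS-45 had 1 RUNX2 peak, with a fold enrichment of 4.53, 3.11 kb outside the upper end of the gene, and 1 H3K27ac region, 0.95 kb wide with 1.73, across that end. The summit was not in H3K27ac. PER-117 had neither a RUNX2 peak nor an H3K27ac region in the locus. In KARPAS-45, 18.5% of genes had a lower RUNX2 density than MN1.

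ZEB2, a zinc finger repressor of the same family as ZEB1 (chromosome 2, 144384081 to 144520119), had 2 weak RUNX2 peaks in each line. The pair it shared lay at the 3′ end, in KARPAS-45 886 bp beyond it with a fold enrichment of 5.20 and in PER-117 948 bp beyond it with 4.72, with summits 62 bp apart. Neither summit was in H3K27ac, and the nearest region of PER-117 was 270 bp from its summit. PER-117 also had a peak at the start with 4.13, whose summit 94 bases before it lies in the window shown above. KARPAS-45 had its other peak 13.0 kb beyond the 3′ end, with 4.64, at a place acetylated in PER-117 alone. The gene-end call of ZEB2 for KARPAS-45 thus rested on its 3′ end, and in both lines the gene-end calls of ZEB2 were lost when a −log10 q of at least 10 was required.

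The ZEB2 start was acetylated in both lines. PER-117 had a region of 4.42 kb with a fold enrichment of 6.20, which ended 7 bp short of the RUNX2 summit, and KARPAS-45 had regions of 3.66 and 0.662 kb with 2.03 and 2.12, the nearer of them 57 bp inside the gene. The lines shared 3.35 kb, which was 77.5% of the 4.32 kb of KARPAS-45 and 33.8% of the 9.90 kb of PER-117. None of the 4 RUNX2 summits at ZEB2 lay in H3K27ac of its own line, in contrast to FLT3 and CD34. The start peak of PER-117 did overlap its H3K27ac region, so by any overlap of the peak 1 of the 4 was acetylated.

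**Figure D3:**
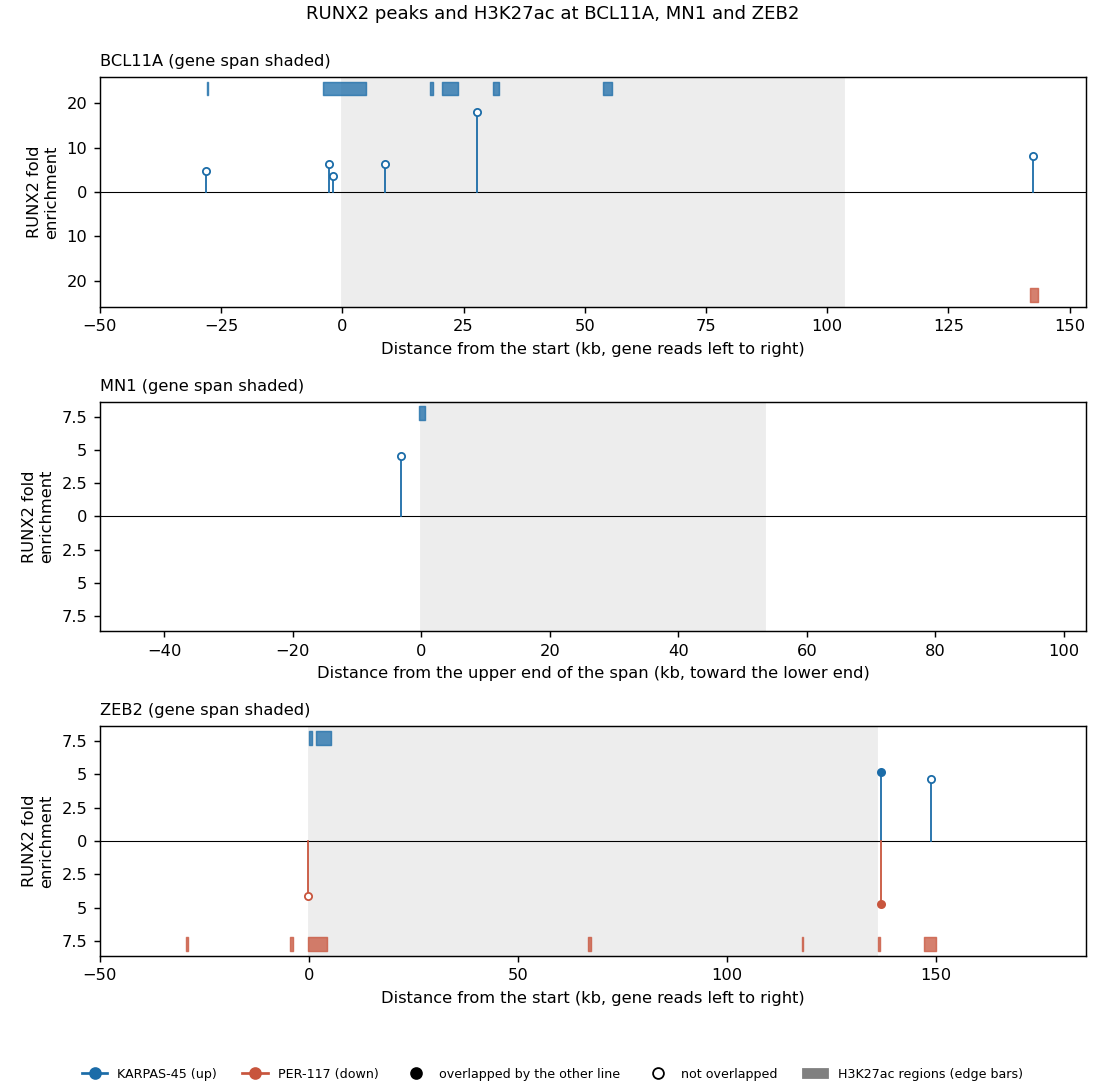
RUNX2 peaks at BCL11A, MN1 and ZEB2 by distance from the start in kb (for MN1 from the upper end of the gene), drawn like those of the receptors, with KARPAS-45 upward and PER-117 downward. BCL11A has 6 upward peaks, the tallest 18.0, and 0 downward, MN1 has 1 upward peak of 4.53, and ZEB2 has 2 in each direction, of which the pair of 5.20 and 4.72 at the 3′ end is filled.

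MSI2 (chromosome 17, 57255851 to 57701581), the longest of the 7 genes at 446 kb, held 51 of the RUNX2 peaks of KARPAS-45 and 15 of those of PER-117. In KARPAS-45, 2 protein-coding genes, MSI2 among them, had 51 or more, and in PER-117 43 had 15 or more. Per length, 96.5% of genes had a lower density than MSI2 in KARPAS-45 and 75.6% in PER-117. Almost all peaks were inside the gene, 47 of 51 and 14 of 15. In KARPAS-45 they ran from 1.87 to 357 kb from the start and in PER-117 from 26.3 to 350 kb, so that the last 88.9 and 95.6 kb of the gene had none.

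The strongest MSI2 peaks lay deep in the gene and were called in both lines. At 199 kb from the start (57454738 to 57455727) KARPAS-45 had a fold enrichment of 76.8, rank 7 of its whole list, and PER-117 had 19.7, rank 699, with summits 10 bp apart. At 29.6 kb (57285148 to 57285751) KARPAS-45 had 46.4, rank 218, and PER-117 11.9, rank 2642. The strongest peak of PER-117 lay at 182 kb, with 20.0 and rank 663, where KARPAS-45 had 6.16 and rank 22388 and the summits were 171 bp apart. At 344 kb the values were 18.7 in KARPAS-45 and 13.0 in PER-117. KARPAS-45 alone had a peak of 19.7 at 330 kb, rank 3129. The lines thus shared a set of sites inside MSI2 but ranked them differently: 13 of the 15 PER-117 peaks and 13 of the 51 of KARPAS-45 overlapped the other line.

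At the MSI2 start neither line had a RUNX2 summit within 1 kb of the outer end of the gene. KARPAS-45 had a weak peak, with 4.13, 697 bp from the second annotated start, which lies 1.17 kb inside the span. H3K27ac covered the start in both lines, in a region of 5.58 kb with a fold enrichment of 1.34 and a −log10 q of 1.37 in KARPAS-45 and in one of 4.47 kb with 8.20 in PER-117. The KARPAS-45 region was among those lost when a −log10 q of 2 was required.

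H3K27ac ran along most of MSI2 in KARPAS-45. It covered 360 kb of the locus there and 172 kb in PER-117, and no other protein-coding gene locus had as much as MSI2 in PER-117, while 4 genes, MSI2 among them, had as much in KARPAS-45. A single KARPAS-45 region of 177 kb (57394203 to 57571234), the fifth widest of its list, with a fold enrichment of 3.01, held 27 RUNX2 peaks of KARPAS-45 and 7 of PER-117. In the same stretch PER-117 had 52 separate regions that covered 86.0 kb, or 48.6%. By 100-kb stretches from the start, KARPAS-45 had 8, 13, 17 and 9 RUNX2 peaks and PER-117 had 3, 8, 1 and 2. The stretch from 200 to 300 kb was the one where the lines were furthest apart, with H3K27ac over 100 kb in KARPAS-45 and 41.5 kb in PER-117. Of the PER-117 bases in H3K27ac, 92.5% were also in KARPAS-45 regions, and of the KARPAS-45 bases 44.2% were in those of PER-117. MSI2 summits lay in H3K27ac of their own line in 47 of 51 cases in KARPAS-45 and 13 of 15 in PER-117.

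**Figure D4:**
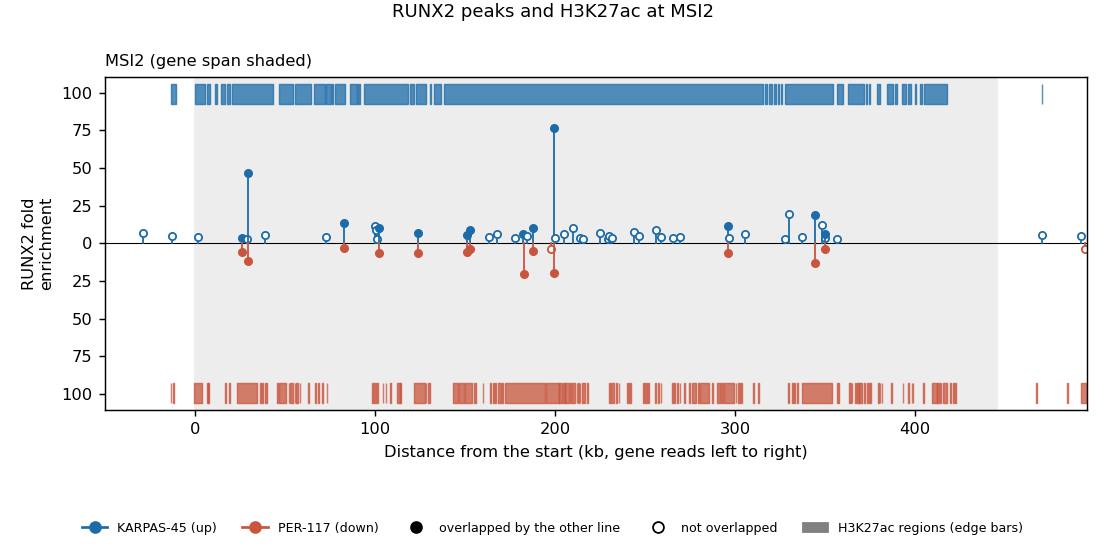
RUNX2 peaks along MSI2 by distance from the start in kb, with fold enrichment as height, KARPAS-45 upward and PER-117 downward; filled symbols overlap a peak of the other line, bars at the edges are H3K27ac and shading is the gene. The tallest peak, 76.8 upward and 19.7 downward, lies 199 kb into the gene, and the last 88.9 kb of the gene have no RUNX2 peak in either line.

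Over the 7 loci together, 57 of the 85 KARPAS-45 peaks and 16 of the 28 PER-117 peaks were in gene bodies, 4 and 2 at starts, 1 and 1 at a 3′ end, 7 and 2 upstream, 13 and 6 downstream and 3 and 1 at the end of a neighbouring gene. The median fold enrichment, 5.28 in KARPAS-45 and 5.34 in PER-117, was below the median of each whole list, 6.36 and 5.72. MSI2 gave 51 of the 85 and 15 of the 28, and without it 34 and 13 were left. The KARPAS-45 list was also the longer one. With it cut to the 21027 peaks of highest fold enrichment, the length of the PER-117 list, the loci held 31 and 28. MSI2 gave 19 and 15 of these, and the remaining peaks were not more numerous in KARPAS-45. Why KARPAS-45 had more peaks in the lists as deposited was not tested.

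Sharing between the lines was near that of the whole lists as deposited. In KARPAS-45, 23 of 85 member peaks (27.1%, Wilson 95% interval 18.8% to 37.3%) overlapped a PER-117 peak, beside 31.2% of all its peaks. In PER-117, 22 of 28 (78.6%, 60.5% to 89.8%) overlapped a KARPAS-45 peak, beside 63.6%. These intervals, and those for acetylation below, cover counting error only and treat peaks as independent. MSI2 gave 51 of the 85 and 15 of the 28, and 27 KARPAS-45 peaks lay in 1 H3K27ac region, so the intervals may be too narrow. At equal list length, by fold enrichment, the shares were 41.9% and 46.4%. The shares of the whole lists under that cut were not computed. Whether member loci then differed from the whole lists is therefore not known. The overlaps made 23 pairs, 13 in MSI2, 4 each in FLT3 and CD34 and 1 each in KIT and ZEB2. The PER-117 peak of 6.93 near FLT3 overlapped the KARPAS-45 peaks of 3.59 and 4.33 and is counted with each. Their summits were 10 to 275 bp apart with a median of 32 bp, and 19 of the pairs were acetylated in both lines. The fold enrichment was the higher one in KARPAS-45 in 17 pairs and in PER-117 in 6, which compares values from separate lists and is no measure of binding.

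Member summits lay in H3K27ac of their own line in 70 of 85 cases in KARPAS-45 (82.4%, 72.9% to 89.0%) and in 23 of 28 in PER-117 (82.1%, 64.4% to 92.1%), beside 65.2% and 75.6% of the whole lists. MSI2 carried this figure in KARPAS-45: without it 23 of 34 were acetylated (67.6%, 50.8% to 80.9%), and in PER-117 10 of 13. FLT3 and CD34 summits all lay in H3K27ac and those of ZEB2 and MN1 in none.

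**Figure D5:**
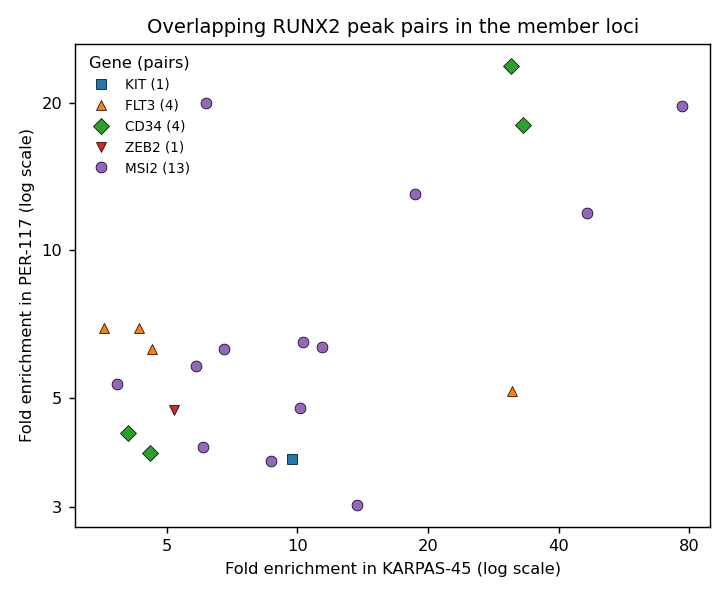
The 23 pairs of overlapping RUNX2 peaks by fold enrichment in KARPAS-45 and in PER-117, on log axes, coloured by gene. In 17 pairs the KARPAS-45 value is the higher one, with MSI2 at 76.8 and 19.7 farthest out, and in 6 the PER-117 value is, as at the end of PAN3 beside FLT3.

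The other genes of these pathways were read from a list of 50, all of which were matched. RUNX2 was at a gene end in 21 of them in KARPAS-45 (42%) and in 15 in PER-117 (30%), beside 48.3% and 32.5% of all genes. H3K27ac was at an end in 26 (52%) and 25 (50%), beside 61% and 55.5%. The order of the lines for RUNX2 turned when each list was given the same number of peaks, with 11 genes bound in KARPAS-45, where 27.6% of all genes then were, and 15 in PER-117. Within 2.5 kb of an end 26 and 22 were bound, beside 53.9% and 37.1% of all genes. In both lines 13 were bound at an end, 8 in KARPAS-45 only and 2 in PER-117 only, beside 29.2%, 19.2% and 3.35% of all genes. H3K27ac was at an end in both lines in 20, in KARPAS-45 only in 6 and in PER-117 only in 5, beside 51.9%, 9.18% and 3.63%. The counts by role are small and stand beside the 48.3% and 32.5% of all genes bound at an end. Receptor signalling genes were bound in 8 of 9 cases in KARPAS-45 and in 5 of 9 in PER-117. Paralogs of the members were bound in 2 of 3 in each line. All 9 signalling genes were acetylated at an end in both lines, as were 51.9% of all genes. Of the class III receptors and ligands 1 of 6 was bound, FLT3LG, the ligand of FLT3, in both lines with 15.7 in KARPAS-45 and 11.5 in PER-117, while KITLG, the ligand of KIT, had 0 RUNX2 peaks and 0 kb of H3K27ac in its locus in either line. Stem-cell transcription factors were bound in 5 of 15 and 2 of 15, surface markers in 2 of 8 and 1 of 8, other progenitor receptors in 2 of 5 in each line and RNA-binding factors in 1 of 4 and 2 of 4.

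Among the genes bound at an end in both lines, the 6 with the highest lower value were STAT5A, a transducer of cytokine signals, with a fold enrichment of 19.5 for KARPAS-45 and 17.4 for PER-117, LYL1, a stem-cell factor of the TAL1 family, with 57.2 and 16.6, CD38, a surface ectoenzyme, with 15.8 and 11.5, FLT3LG, ZEB1, the paralog of ZEB2, with 16.2 and 8.61, and CXCR4, the receptor that holds progenitors in the marrow, with 25.02 and 7.75. In KARPAS-45 only, CBL, a ubiquitin ligase that removes activated KIT and FLT3, had 4.32, CEBPA, a myeloid factor, 14.9, and GAB2, a docking protein of these receptors, 5.16. In PER-117 only, IGF2BP1 had 4.40 and STAT5B 5.28. Of the paralogs, ZEB1 had 11 RUNX2 peaks in its locus for KARPAS-45 and 1 for PER-117 beside 2 and 2 for ZEB2, BCL11B, a T-cell commitment factor, had 12 and 3 beside 6 and 0 for BCL11A, and MSI1 had 5 and 3 beside 51 and 15 for MSI2. These locus counts are not per length.

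Over the 4 lists, the gene of the 50 with the most similar densities was found for each member as the smallest Euclidean distance on a log2 scale of 1 plus RUNX2 peaks per 100 kb and 1 plus percent in H3K27ac. It was PROM1 for KIT, at a distance of 0.737, with 6 peaks for KARPAS-45 and 0 for PER-117. For FLT3 it was PTPN11 at 0.538, for CD34 SH2B3 at 0.462 and for BCL11A TAL1 at 0.543. For MN1 it was THY1 at 0.499, for ZEB2 HLF at 0.853, and for MSI2 PTPN6 at 0.426. These likenesses rest on 4 values each.

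RUNX2 summits of each line were also set against H3K27ac of the other. Of the 85 member summits of KARPAS-45, 47 lay in PER-117 H3K27ac, where 42.2% of its whole list did. Of the 28 of PER-117, 24 lay in KARPAS-45 H3K27ac, where 62.5% did. MSI2 gave 51 of the 85 and 15 of the 28, and the counts without it were not computed. Whether the other loci differed from the whole lists is therefore not known. Summits acetylated only in the other line were 2 in KARPAS-45, those of BCL11A with 8.02 and ZEB2 with 4.64. In PER-117 they were 3, that of KIT with 3.75 and those of MSI2 with 3.03 and 6.51.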

How the data were processed

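Peak lists of RUNX2 and H3K27ac, 1 per line and antibody, were used as the authors deposited them. The 3 input libraries among the 7 samples were not analysed here. STAR 2.4.2a, MACS2 and hg38 are named per the submitters' processing notes, while the sources used here do not give their roles, settings and thresholds. Each peak of the deposited lists has a display score, −log10 p and −log10 q values, and its fold enrichment as a linear ratio. A summit offset in bases was deposited for RUNX2, and that column is 100 throughout in the H3K27ac lists and was not used.

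Where a RUNX2 peak had several summits, 1 interval was kept with the summit of highest fold enrichment. A peak was placed in a locus by this summit. A mark was called at an end or start when it overlapped a window of 1 kb on each side, peaks were shared at an overlap of 1 bp or more, and a summit was acetylated when inside an H3K27ac region. A RefSeq table of GRCh38.p14 gave gene spans and its promoter table gave strands and starts, so exons and introns were not resolved. For MN1, with no strand in the tables used, the 2 ends of the span were read alike. Shares have Wilson 95% intervals, and no test was run, as each group had 1 library.

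Named were all 7 members, the strongest RUNX2 peak and widest H3K27ac region of each, shared and gene-end peaks, neighbours with an end in a locus, up to 6 list genes bound in both lines and up to 3 bound in 1 line, and the nearest list gene by density. Other peaks, KITLG, BCL11B and MSI1 were named after their values were seen. The members and lists were chosen with earlier results of these data known. The overlap code was tested on simulated data, with 0 mismatches in 8000 queries. The tools were matplotlib 3.10.9, scipy 1.17.1, pandas 2.3.3 and numpy 2.4.6 under Python 3.11.15. Alternatives were other windows, flanks, thresholds, list lengths and overlap rules. Some marker results are not reported here.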

Additional observations from a re-analysis of the deposited data

How the results depend on the processing

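Of 82 recomputed values, 48 stayed close and 34 moved, where a count moved by over 1.5 times, a share left its interval, or a covered length changed at all. The 48 include values that could not move. Equal peak numbers and equal covered length shortened the KARPAS-45 list alone, which fixed the counts, acetylated shares and covered length of PER-117 under them. In each setting the first value is for KARPAS-45 and the next for PER-117. With a gene-end window of 2.5 kb, 6 members were bound at an end in KARPAS-45. With a −log10 q of at least 10 for RUNX2, 0 members were bound at an end in PER-117, the loci held 34 and 12 peaks, and 12 and 9 list genes were bound. With the same number of RUNX2 peaks in each list, the loci of KARPAS-45 held 31, 41.9% and 46.4% of peaks overlapped the other line, and 11 list genes were bound in KARPAS-45, below the 15 of PER-117. With the 5000 strongest peaks, 0 members were bound in PER-117, the loci held 9 and 7 peaks, 55.6% of those of KARPAS-45 overlapped, 100% of PER-117 summits were acetylated, and 6 and 4 list genes were bound. With H3K27ac regions of −log10 q of at least 2, 4 members were acetylated at an end in KARPAS-45, 70.6% of its summits were acetylated, and 398 and 189 kb were covered. With H3K27ac of equal covered length, 2 members, 67.1% of summits, 364 kb and 16 list genes were left in KARPAS-45, whose list alone is shortened, and PER-117 then had more members and list genes acetylated at an end. Flanks of 25 kb gave 436 and 219 kb of H3K27ac and flanks of 100 kb gave 519 and 256 kb. Without MSI2, a setting chosen after the data were seen, 34 and 13 peaks, 67.6% of summits acetylated in KARPAS-45, and 112 and 59.3 kb were left. KARPAS-45 had more RUNX2 peaks and more H3K27ac in the loci than PER-117 under each of these settings. None of the settings gave the H3K27ac lists a common floor of fold enrichment. With the same number of RUNX2 peaks in each list, the RUNX2 order rested on MSI2, with 19 and 15 peaks. CD34 then had 3 and 7, ZEB2 0 and 2, KIT 4 and 1, BCL11A 2 and 0, FLT3 3 and 3, and MN1 0 and 0. At that setting the loci other than MSI2 held fewer peaks in KARPAS-45 than in PER-117. Shares of all genes were recomputed only for RUNX2 at gene ends, with the 2.5 kb window and with equal peak numbers. The other gene-end counts, and the overlap shares with shortened lists, have no such share beside them. No paired analysis was possible because each group is 1 library. Unknown depth limits every missing call.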
